A study of Homo sapiens with 6 samples.

Results

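A set of 10 immediate-early genes was examined in a map of DNA double-strand breaks (DSBs) from cells treated with camptothecin (CPT). They are the Jun genes JUN, JUNB and JUND, the Fos genes FOS, FOSB, FOSL1 and FOSL2, and ATF3, EGR1 and IER2, which make 10 of the 20098 protein-coding genes annotated on chromosomes 1 to 22 and X. These genes were selected on results of the same peak lists, including a late cluster of breaks beside JUND, so their peak values are given as a description without a test. Peaks and paired sites were assigned to a gene where they overlapped its body extended by 5 kb on each side, and the 10 windows together spanned 218.718 kb of hg19.

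The assay was END-seq, which captures free DNA ends with an adapter in cells embedded in agarose and reads outward from each end, so that reads left of a break pile up on the reverse strand and reads right of it on the forward strand. HCT116 cells, an established human colorectal carcinoma line, were left untreated (Ctrl) or exposed to 10 µM CPT for 10 min (CPT10) or 20 min (CPT20), with 2 biological replicates per condition. Sample names attach µM to both 10 and 20, but the protocol for treatment and the design text state 1 dose and different times, and that reading is used here. The lists used here come from the 4 treated libraries, and no background measured the same way in Ctrl cells was used here.

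CPT traps topoisomerase I on DNA after the enzyme has nicked a strand to release torsion, and torsion builds up where RNA polymerase moves. Immediate-early genes are transcribed within minutes of a growth or stress signal without new protein synthesis, and many are short. Jun and Fos proteins carry a basic leucine zipper and bind DNA as the dimer AP-1, Jun proteins with each other or with Fos proteins, and Fos proteins only with a partner. ATF3 is a stress-induced leucine zipper factor of the ATF/CREB family, EGR1 is a zinc finger transcription factor, and IER2 is a nuclear protein induced by growth factors.

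The promoters of the 4 genes whose persistent clusters reached the canonical 5′ end are shown. These clusters are merged over libraries, and a site of a single library lay over the FOSB promoter in all 4 libraries, over that of JUNB in both CPT20 libraries, over that of FOS in replicate 1 at each time, and over that of EGR1 in CPT20 replicate 1 alone, at 4.06 times the expected height. Each sequence is the gene strand of hg19 from 250 bases before to 30 bases after that end, and capitals mark a CArG box, which serum response factor binds, the letters TATAAA, or the letters GCGNGGGCG, which EGR1 binds, on either strand.
JUNB, plus strand of chr19:12902050-12902329: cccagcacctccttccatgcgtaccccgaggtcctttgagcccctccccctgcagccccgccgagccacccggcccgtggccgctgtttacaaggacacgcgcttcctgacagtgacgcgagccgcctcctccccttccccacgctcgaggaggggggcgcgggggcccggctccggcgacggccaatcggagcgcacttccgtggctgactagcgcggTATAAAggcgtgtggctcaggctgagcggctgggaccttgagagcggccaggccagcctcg
FOS, plus strand of chr14:75745281-75745560: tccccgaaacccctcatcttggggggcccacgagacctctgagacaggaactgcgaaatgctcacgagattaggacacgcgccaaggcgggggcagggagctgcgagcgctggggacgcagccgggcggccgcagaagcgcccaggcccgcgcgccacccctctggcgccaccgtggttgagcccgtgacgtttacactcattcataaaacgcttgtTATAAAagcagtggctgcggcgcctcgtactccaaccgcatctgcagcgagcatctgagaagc
FOSB, plus strand of chr19:45971004-45971283: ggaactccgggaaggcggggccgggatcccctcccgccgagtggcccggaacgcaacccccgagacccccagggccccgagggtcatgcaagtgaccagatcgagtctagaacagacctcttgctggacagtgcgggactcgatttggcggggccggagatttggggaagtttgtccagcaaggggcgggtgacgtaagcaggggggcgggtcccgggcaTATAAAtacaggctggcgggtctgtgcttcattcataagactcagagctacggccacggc
EGR1, plus strand of chr5:137800918-137801197: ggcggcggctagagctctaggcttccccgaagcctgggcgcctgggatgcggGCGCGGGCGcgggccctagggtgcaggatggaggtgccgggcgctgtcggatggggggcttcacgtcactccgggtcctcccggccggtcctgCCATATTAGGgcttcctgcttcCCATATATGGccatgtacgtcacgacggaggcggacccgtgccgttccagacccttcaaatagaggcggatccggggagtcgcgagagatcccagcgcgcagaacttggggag
TATAAA began at -31 in JUNB, -33 in FOS and -30 in FOSB, where -1 is the base before the 5′ end. EGR1 had CArG boxes from -105 to -96 and from -83 to -74.

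The lists held between 286491 and 826744 peaks each. They give no read totals, but their fold values imply a constant expected fragment height per list, from 0.727 to 1.44, which is a relative measure of depth. Distances of summits and midpoints count from 0 at the 5′ end, negative upstream. Heights are given below as the fragment pile-up at a summit divided by that expected height. CPT20 replicate 2 had the fewest sites genome-wide, 18831 against 54794 to 102733 in the other libraries. In END-seq terms a DSB site is a reverse peak with its closest forward peak overlapping it or starting under 150 bp downstream, and its height is the lower of its paired summits. A site was called replicated when both libraries of a time had overlapping sites. The merged clusters were called persistent (replicated at both times), transient (10 min only) or late (20 min only). The study uses the same class names, but its classes also required a read-count increase over control samples, which was not tested here.

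In the lists as deposited, replicated breaks lay at nearly all of these genes. At 10 min 9 of the 10 genes had a replicated site, where 11.5% of all protein-coding genes did, and the exception was JUND. At 20 min all 10 had a replicated site, against 11.0% of all genes. A persistent cluster was present at 8 genes, all but JUN and JUND, against 3.81% of all genes. A transient cluster was present at JUN and FOSB (8.95% of all genes) and a late cluster at JUN, JUND, FOSL1, ATF3 and EGR1 (8.78% of all genes). Since most of the 10 genes are short, the count was repeated in a window of 5 kb on each side of the 5′ end, the same length for every gene. There 9 and 10 genes had a replicated site at 10 and 20 min, against 6.05% and 7.28% of all genes. Persistent clusters were again at 8 genes (2.77%), transient clusters at 1, JUN (3.71%), and late clusters at 5 (5.19%).

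These counts depended on the threshold of the lists. With only peaks of −log10 q of at least 10, replicated sites were at 3 genes at 10 min (FOS, EGR1 and IER2) and at 5 at 20 min (JUND, FOS, FOSB, EGR1 and IER2), against 0.826% and 1.56% of all genes. Persistent clusters were then at 3 genes (0.542% of all), transient clusters at none (0.338%) and late clusters at 3, JUND, FOS and FOSB (1.11%).

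The 10 windows held 20 clusters, 12 persistent, 2 transient and 6 late. Of the 20 midpoints, 15 lay within 5 kb downstream of the canonical 5′ end and 2 within 5 kb upstream, with a median of 2864 bp downstream. Among the 12 persistent clusters 11 lay in that downstream stretch, and the other was the distal cluster of FOSL1. The upstream midpoints were those of late clusters at JUND and EGR1. No such count is given here for the clusters of all genes, so these numbers do not set the 10 genes apart. Over all genes peaks also covered more of the 5 kb downstream than upstream, 9.31% against 7.43% in CPT10 replicate 1, for example. The classes rest on presence in a list, and 5 of the 6 late clusters also overlapped a site in 1 of the CPT10 libraries, while both transient clusters overlapped a site in 1 of the CPT20 libraries.

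**Figure D1:**
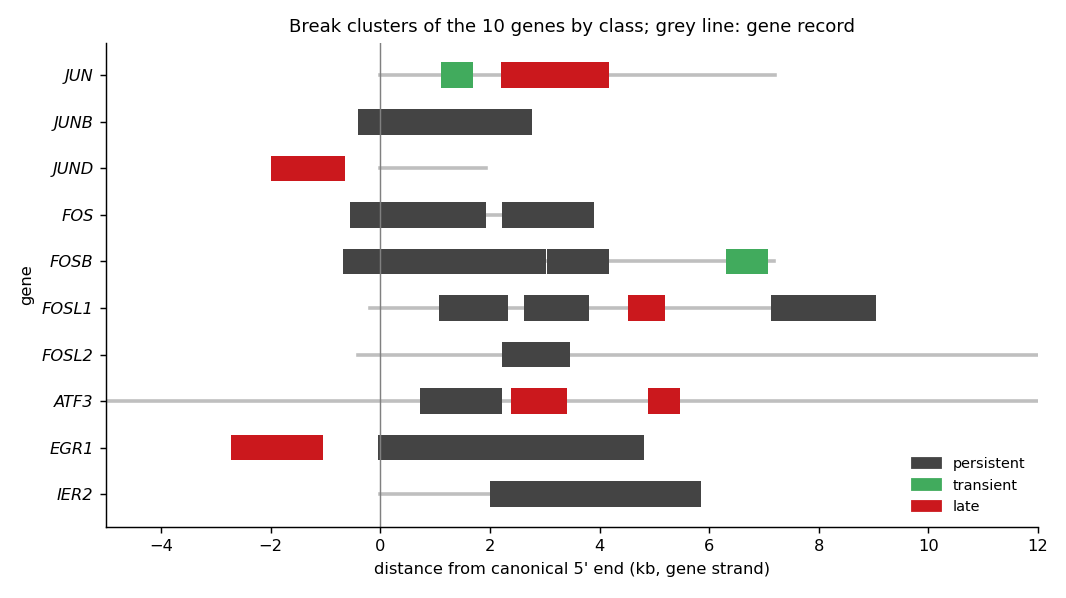
Break clusters of the 10 genes drawn to scale, with distance from the canonical 5′ end in kb along the gene strand on the x axis and 1 row per gene; bars are clusters coloured by class and grey lines the gene records, cut at the plot edges. Most of the 20 clusters sit right of the 5′ end, and the JUND cluster and 1 EGR1 cluster sit left of it.

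Peak cover, the percentage of a window that lies inside peaks averaged over the strands, was high at these genes in every library. In the window of 5 kb on each side of the 5′ end the median over the 10 genes was 27.8% and 18.4% in replicates 1 and 2 of CPT10 and 38.1% and 21.7% in those of CPT20. The medians over all protein-coding genes were 7.18%, 4.05%, 8.22% and 2.59% in the same order. At least 9 of the 10 genes stood at or above the 90th percentile of all genes in each library, and all 10 did in CPT20 replicate 2. In the other libraries FOSL2 was the exception, at the percentiles 64.4, 83.2 and 87.2.

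This cover was local. Set against the stretches from 50 to 500 kb on either side of the gene, cover of the gene window was higher in 39 of 40 gene and library combinations. The ratio ran from 0.908 at FOSL2 in CPT10 replicate 2 to 11.2 at EGR1 in CPT20 replicate 2. Replicate 1 had more cover than replicate 2 at all 10 genes at both times, the same order as the length of the lists.

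**Figure D2:**
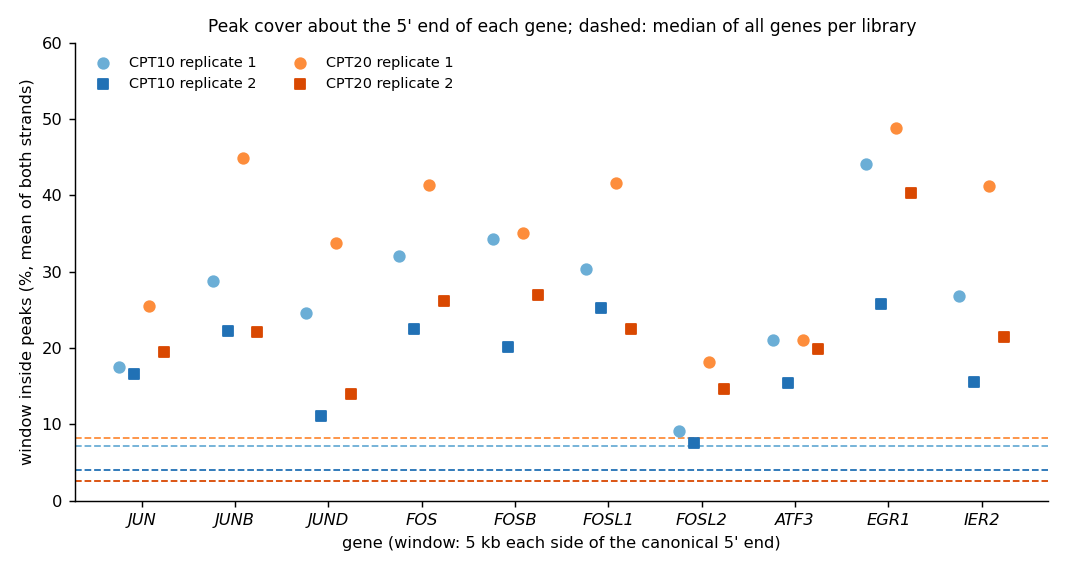
Percentage of the 10 kb window about each canonical 5′ end that lies inside peaks, averaged over strands, for each gene (x axis) and library (points); dashed lines are the medians over 20098 protein-coding genes in the same libraries. EGR1 reached 48.8% in CPT20 replicate 1, and FOSL2 in the CPT10 libraries lay nearest to the dashed lines.

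Among the Jun genes, JUN, the gene after which the family is named, had low sites. It is a single-exon gene (ENSG00000177606) on the minus strand of chr1:59242517-59249720. The best site in its window reached 9.01 and 9.54 times the expected height in the CPT10 libraries. Replicate 1 is given before replicate 2 here and below. In the CPT20 libraries it reached 13.3 and 12.7 times, so that both CPT20 values lay above both CPT10 values. These were different sites, with midpoints at 52 and 1249 bp at 10 min and at -333 and 3093 bp at 20 min, so no single site is followed. The site of 13.3 times was 17 bp wide, with its forward summit at 17 bp and its reverse summit at -394 bp. On the chromosome its reverse summit lay right of its forward summit, the opposite of the order at a break. The next highest site of that library, at 10.8 times, also lay above both CPT10 values. A transient cluster at chr1:59248035-59248607 had its midpoint in the coding exon, and a late cluster at chr1:59245555-59247524 in the 3′ untranslated region. Both had a site in 1 library of the other time, of 8.12 times in CPT20 replicate 1 and of 7.81 times in CPT10 replicate 1. JUN was the only one of the 10 with higher peak cover over its whole window in both CPT20 libraries, 20.4% and 12.3% against 10.8% and 11.1%, an order found in 0.911% of all genes. This order is of cover as listed. With cover divided by the whole-genome cover of each library, the order held at all 10 genes, against 21.7% of all genes. At JUN the divided values were 1.90 and 3.01 at 10 min and 3.81 and 5.60 at 20 min. The division was added after seeing the data, and whole-genome cover was lowest in CPT20 replicate 2, at 2.21%. As listed, about the 5′ end alone the order held at JUN and FOSL2, against 4.92% of all genes.

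JUNB, a Jun protein that can oppose JUN, had 1 persistent cluster of 3186 bp at chr19:12901890-12905075, which covered the whole gene (ENSG00000171223, chr19:12902300-12904129, plus strand). Its best site was 18.7 and 13.6 times the expected height in the CPT10 libraries and 29.2 and 12.7 times in the CPT20 libraries, so the times overlapped. The reverse strand carried the tallest JUNB peak in every library, with summits 863 to 1061 bp into the single coding exon at 25.6, 35.8, 37.5 and 26.8 times. The gene record of HOOK2, a cytoskeletal linker encoded on the other strand, spans the whole of this cluster, although its canonical transcript does not reach it.

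JUND, the most steadily expressed Jun gene, differed from the others in having no replicated site at 10 min. The gene (ENSG00000130522, chr19:18390504-18392432, minus strand) had 5 forward and 3 reverse peaks in its window in CPT10 replicate 2, and none of them paired. The late cluster at chr19:18393075-18394429 lay between genes with its midpoint at -1320 bp. Its best site was 6.93 times the expected height in CPT10 replicate 1, absent in CPT10 replicate 2, and 32.5 and 23.3 times in the CPT20 libraries. The pair behind these values consisted of a reverse peak with its summit at -925 and -946 bp in CPT20 replicates 1 and 2 and a forward peak with its summit at -1220 and -1259 bp. On the chromosome the reverse summit in the CPT20 libraries is thus left of the forward summit, the order that a break gives. In CPT10 replicate 1 the order was the opposite, with the reverse summit at -915 bp and the forward summit at -862 bp.

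The strands behaved differently at 10 min. The reverse peak was already 22.01 times the expected height in CPT10 replicate 1, against 32.5 and 23.3 times at 20 min, and no reverse peak was listed there in CPT10 replicate 2. Overlapping forward peaks were listed in all 4 libraries. They stood at 6.93 and 13.6 times in the CPT10 libraries and 34.1 and 24.3 times in the CPT20 libraries. Their summits differed, at -862 and -1094 bp in the CPT10 libraries and at -1220 and -1259 bp in the CPT20 libraries, so no single summit is followed. The stretch common to these 4 forward peaks is given below on the plus strand, with capitals from the CPT20 replicate 1 summit to the CPT20 replicate 2 summit, and it held none of the motifs searched.
JUND upstream, plus strand of chr19:18393424-18393711: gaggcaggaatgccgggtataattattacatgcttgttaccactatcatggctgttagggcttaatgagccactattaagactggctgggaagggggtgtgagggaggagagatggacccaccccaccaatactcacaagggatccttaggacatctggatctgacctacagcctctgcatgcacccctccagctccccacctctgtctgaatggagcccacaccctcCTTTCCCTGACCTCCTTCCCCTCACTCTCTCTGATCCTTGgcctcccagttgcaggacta
Inside the gene a forward peak stood in every library with its summit 837 to 984 bp into the coding exon, at 22.2, 35.4, 45.5 and 28.9 times the expected height. No reverse peak in the JUND window was shared by all 4 libraries.

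Among the Fos genes, FOS, the partner of Jun proteins in the original AP-1 complex, had persistent clusters at its start and at its end (ENSG00000170345, chr14:75745529-75748933, plus strand). The proximal cluster, chr14:75744980-75747450, reached across the promoter printed above through sites of replicate 1 only, and its best site was 10.4 and 23.4 times in the CPT10 libraries and 18.3 and 22.2 times in the CPT20 libraries. The distal cluster, chr14:75747754-75749419, had its midpoint in the 3′ untranslated region, and its best site was 16.6, 46.8, 20.0 and 18.7 times. The value of 46.8 in CPT10 replicate 2 was the highest site of the 10 genes in any library, and the remaining 3 libraries lay between 16.6 and 20.0. The forward and reverse summits behind it stood at 49.1 and 46.8 times in that library.

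FOSB, a Fos protein that also exists as a truncated form, carried the tallest single peak. A reverse peak sat on its 5′ end in all 4 libraries, with summits at -71, 1, 42 and 10 bp and heights of 19.9 and 45.4 times the expected height in the CPT10 libraries and 89.2 and 65.3 times in the CPT20 libraries. The CPT20 values lay above the CPT10 values, but the peak is named for its CPT20 heights, so this order partly follows from the choice. In fragments the summits were 28, 33, 107 and 56. Counting itself, 95 reverse peaks of the whole list were at least as high in CPT20 replicate 1 and 116 in CPT20 replicate 2, against 369 in CPT10 replicate 2 and 8602 in CPT10 replicate 1. The stretch common to the 4 peaks, chr19:45971084-45971302, holds the TATAAA of the FOSB promoter printed above.

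Forward peaks beside it were lower, with summits 114 to 475 bp downstream at 10.4, 8.18, 7.31 and 20.8 times the expected height, so the paired site height at FOSB did not follow the reverse peak. The best FOSB site was 12.8 and 13.8 times in the CPT10 libraries and 18.7 and 20.8 times in the CPT20 libraries, and lay in the persistent cluster chr19:45970573-45974280 (ENSG00000125740, chr19:45971253-45978437, plus strand). A second persistent cluster adjoined it downstream, with 5.50 to 9.17 times across the libraries, and a transient cluster lay in the 3′ untranslated region. The gene record of ERCC1, a DNA repair nuclease subunit on the other strand, spans the FOSB locus, but its canonical transcript ends before FOSB.

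**Figure D3:**
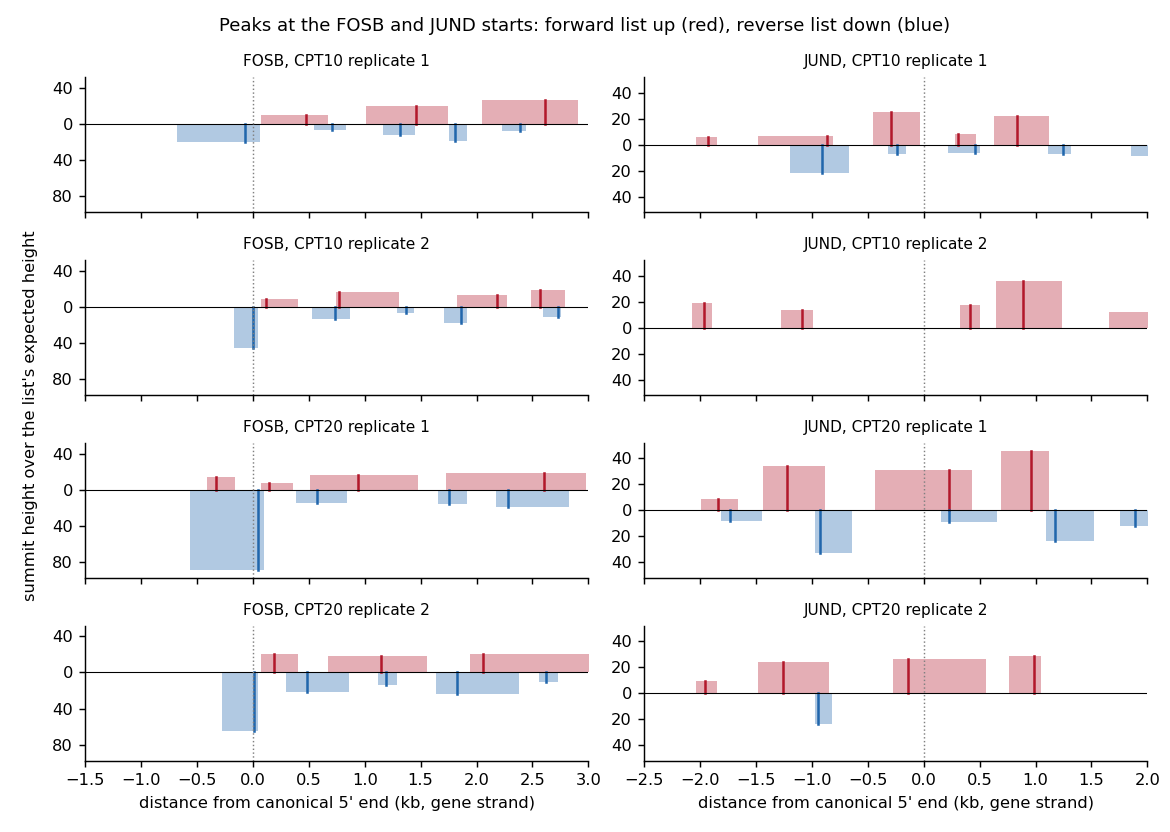
Peaks at the starts of FOSB (left) and JUND (right) in the 4 libraries, with distance from the canonical 5′ end in kb along the gene strand on the x axis and summit height over the expected height of the list on the y axis; shaded boxes span each peak, lines mark summits, forward peaks point up and reverse peaks down. The FOSB reverse peak at the 5′ end reached 89.2 in CPT20 replicate 1, and the JUND reverse peak near -925 bp was missing from CPT10 replicate 2.

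FOSL1 encodes a Fos protein that is often abundant in carcinoma cells, and it held the most clusters, 3 persistent and 1 late (ENSG00000175592, chr11:65659520-65668044, minus strand). Persistent clusters had midpoints at 1699 and 3217 bp in introns and at 8084 bp in the 3′ untranslated region, and the late cluster was at 4860 bp. In the proximal cluster the best site was 16.3 and 17.7 times the expected height in the CPT10 libraries and 18.7 and 9.33 times in the CPT20 libraries, with overlapping times. Just past the 3′ end a reverse peak stood at 36.2, 20.6, 51.7 and 14.0 times, higher in replicate 1 than in replicate 2 at both times.

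FOSL2, the longer sister gene of FOSL1 (ENSG00000075426, chr2:28615315-28640184, plus strand), had 1 persistent cluster at chr2:28617944-28619180 in an intron. Its best site was 9.01 and 17.9 times in the CPT10 libraries and 15.4 and 13.9 times in the CPT20 libraries, so that the times overlapped. In CPT20 replicate 2 the site was 3 bp wide, the overlap of the ends of a forward and a reverse peak. The forward summit, at 2499 bp, lay left of the reverse summit, at 2847 bp, the opposite of the order that a break gives. The replicated call of FOSL2 at 20 min rests on that overlap. Forward peaks of the 4 libraries shared no base anywhere in its window, and neither did those of JUN, whereas reverse peaks did.

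ATF3 (ENSG00000162772, plus strand) has a gene record that begins far upstream, at chr1:212738676-212794119, and its canonical transcript starts at position 212782103. All its clusters lay in introns downstream of that start. A persistent cluster at 1476 bp had best sites of 9.94, 8.18, 7.502 and 16.3 times the expected height. Late clusters followed at 2891 and 5176 bp, and the latter was the only late cluster of the 10 genes with no site in either CPT10 library, against 20.0 and 16.2 times in the CPT20 libraries. An unpaired forward peak of 21.5 times stood there in CPT10 replicate 1, close to the 23.5 times of the forward peak in CPT20 replicate 1.

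EGR1 (ENSG00000120738, chr5:137801168-137804992, plus strand) had the widest cluster and the highest cover. Its persistent cluster of 4851 bp, chr5:137801124-137805974, ran from the 5′ end past the 3′ end, with its first stretch from the site of 4.06 times in CPT20 replicate 1. The best site was 18.5 and 24.5 times the expected height in the CPT10 libraries and 32.5 and 30.3 times in the CPT20 libraries, with both CPT20 values above. Cover about the 5′ end was 44.2% and 25.8% in the CPT10 libraries and 48.8% and 40.4% in the CPT20 libraries, the highest of the 10 genes in each library. Forward peaks that shared bases in the coding exon reached 30.5, 24.5, 36.5 and 60.2 times. Their summits differed, at 1381, 1509, 1486 and 2339 bp, and the last lay in a peak of 2742 bp. In CPT10 replicate 2 a separate forward peak with its summit at 2342 bp stood at 13.6 times. The late cluster upstream, chr5:137798447-137800124, was lower, with best sites of 13.8 and 11.6 times at 20 min and 8.18 times in CPT10 replicate 2.

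IER2 (ENSG00000160888, chr19:13261225-13265725, plus strand) has a short non-coding exon and, after an intron, a second exon from 2533 bp onward that holds its coding sequence. Its persistent cluster, chr19:13263233-13267066, lay over that second exon and beyond, not over the annotated 5′ end. The best site was 15.6 and 19.1 times the expected height in the CPT10 libraries and 24.2 and 22.2 times in the CPT20 libraries, with both CPT20 values above. A forward peak with its summit 2925 to 3040 bp from the 5′ end stood at 17.3 and 20.4 times in the CPT10 libraries and 54.4 and 27.8 times in the CPT20 libraries, in the coding part of the exon. An unnamed non-coding gene on the other strand overlaps this stretch.

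The comparison of the times asked whether breaks at these genes grew between 10 and 20 min. The best site was higher in both CPT20 libraries than in both CPT10 libraries at 6 genes, against 7.67% of all genes. These were JUN, JUND, FOSB, ATF3, EGR1 and IER2. The late cluster that gives JUND this order was named in the selection, so JUND adds no independent case. A gene without a site in CPT20 replicate 2 could not have this order, and the median over all genes there was 0. The best site could also be a different one in each library, as at JUN. At ATF3 the times overlapped about the 5′ end, at 9.94 and 15.0 times, then 13.8 and 16.3 times. At none of the 10 was the best site lower in both CPT20 libraries, an order found in 12.6% of all genes. Cover over the gene window was lower in both at none, against 6.34%. Whole-genome cover was 5.66% and 3.69% in the CPT10 libraries and 5.35% and 2.21% in the CPT20 libraries. Divided by it, cover of the gene window was higher in both CPT20 libraries at all 10 genes, against 21.7% of all genes, and lower at none (8.86%). About the 5′ end this held at 9 genes, all but ATF3, against 24.6%, and lower cover was again at none (9.21%). Within the same replicate number, undivided cover about the 5′ end was higher at 20 min at all 10 genes in replicate 1 (59.5% of all genes) and at 8 in replicate 2, all but JUNB and FOSL1 (31.1%). The study's methods list 2 experiments, each with every condition, but the labels do not tie replicate numbers to them. With 4 libraries an exact permutation test allows no p below 1 in 3, so no p is given.

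Counts of peaks and sites did not separate the times. The windows held 238 and 152 peaks in the CPT10 libraries and 242 and 141 in the CPT20 libraries, a log2 ratio of mean peak density of -0.03. Sites numbered 47 and 29 at 10 min and 60 and 29 at 20 min, a log2 ratio of 0.23. Leaving out a library in turn moved the density ratio between -0.47 (without CPT20 replicate 1) and 0.33 (without CPT10 replicate 1), and the site ratio between -0.39 (without CPT20 replicate 1) and 0.66 (without CPT20 replicate 2), so neither had a stable sign. As a share of all sites of a library the 10 genes held 0.0457% and 0.0529% at 10 min and 0.0699% and 0.154% at 20 min, which gave a log2 ratio of 1.18 and placed both CPT20 libraries above both CPT10 libraries. Most of that ratio came from CPT20 replicate 2, whose total number of sites was the lowest, since the log2 ratio within replicate 1 was 0.61 and within replicate 2 1.54.

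**Figure D4:**
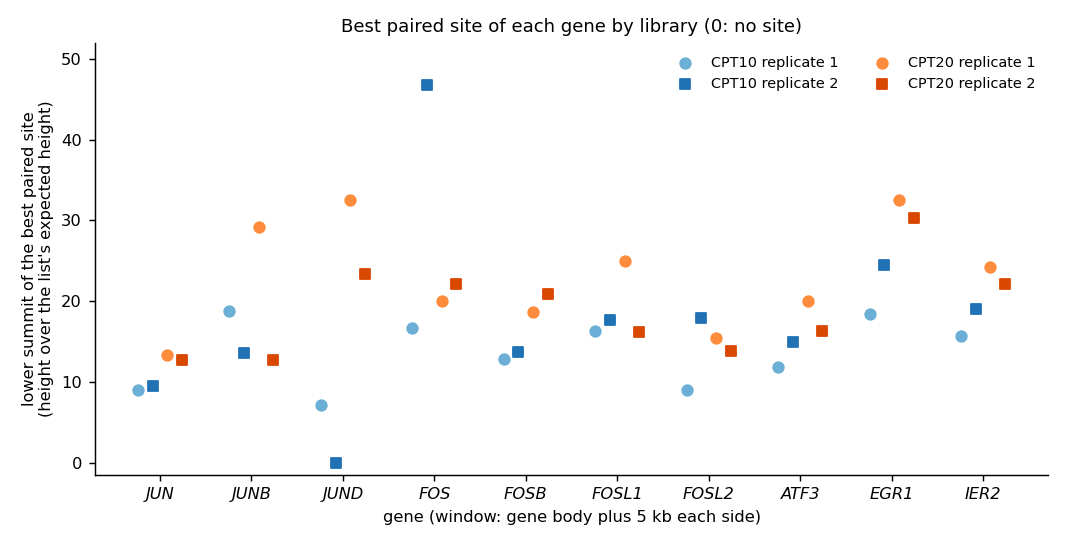
Height of the best paired site of each gene, as the lower of its summits over the expected height of the list, by library (points) in the window of gene body plus 5 kb on each side; 0 means no site. The best site of a gene may be a different one in each library. CPT20 points lie above CPT10 points at 6 genes, and FOS in CPT10 replicate 2 stands at 46.8.

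Position was then compared along the genes. Averaged over the 10 genes, peaks covered 37.6% and 29.6% of the 5 kb downstream of the 5′ end in the CPT10 libraries and 49.5% and 37.2% in the CPT20 libraries. Upstream they covered 16.2% and 6.83%, then 20.8% and 8.24%. Relative to all genes this was 4.04, 5.40, 4.37 and 8.13 times downstream and 2.18, 1.62, 2.45 and 2.83 times upstream. The downstream ratio exceeded the upstream ratio in all 4 libraries.

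**Figure D5:**
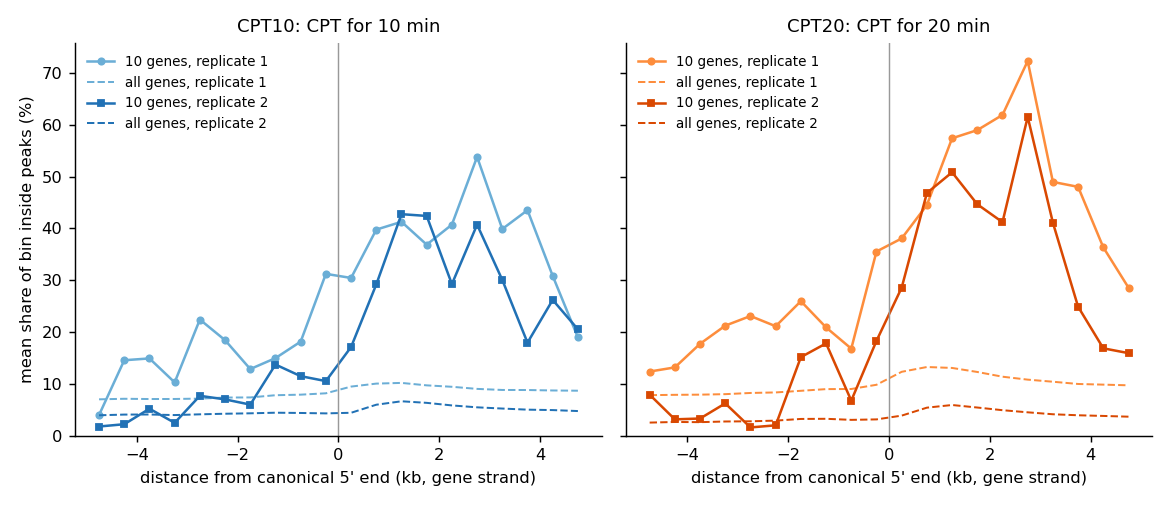
Mean share of each 500 bp bin inside peaks, averaged over strands, against distance from the canonical 5′ end in kb, for CPT10 (left) and CPT20 (right); solid lines with points are the 10 genes and dashed lines all protein-coding genes. The 10 genes rise downstream of the 5′ end in every library, and the dashed lines rise less, from a mean of 7.43% upstream to 9.31% downstream in CPT10 replicate 1, for example.

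Peaks of all 4 libraries overlapped at many of these genes, on both strands. A forward peak shared by all 4 libraries was present at 8 of the 10 genes, against 14.9% of all genes, and a shared reverse peak at 9, against 16.7%. A site in each of the 4 libraries was present at 9 genes, all but JUND, against 26.9%. Of 29 shared forward stretches 24 had their middle within 5 kb downstream of the 5′ end, and of 24 shared reverse stretches 20 did. No such count is given here for all genes. A stretch could be as short as 2 bp, as at EGR1. Its summits could differ, as in 1 EGR1 reverse stretch with summits at 408 bp in CPT10 replicate 1 and 2192 bp in CPT10 replicate 2. Stretches are not separate peaks, since the EGR1 forward stretches all lay in the same CPT20 replicate 2 peak of 2742 bp.

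Within the paired peaks the order of summits was mixed. The reverse summit lay left of the forward summit in 32 of 60, 18 of 40, 47 of 78 and 21 of 41 pairs at these genes in the 4 libraries, or 53.3%, 45.0%, 60.3% and 51.2%. Over all pairs of the genome it did so in 58.3%, 61.7%, 57.5% and 61.7%. The 10 genes thus had no larger share in the order of a single break than the genome had, except in CPT20 replicate 1, and broad peaks of opposite strands often lay on top of each other. Tall peaks were frequent. Among the peaks of the 10 genes, 6.30%, 11.2%, 11.98% and 16.3% were as high as the highest 1% of their own library's list for that strand.

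The 10 genes share features that the selection did not use. Their median length was 5843 bp, against 27257 bp over all protein-coding genes, and JUN, JUNB and JUND have 1 exon, as 5.41% of all genes do. The 10 kb about their 5′ ends had a median of 54.4% G and C, against 46.7% over all genes, and fell in the upper 2 of 5 equal groups of genes by this measure, 3 genes in group 4 and 7 in group 5. Across the 5 groups, from lowest to highest G and C, a persistent cluster was present in 1.66%, 3.61%, 3.56%, 2.49% and 2.51% of all genes. The part of transcription, length or base composition in the breaks was not tested.

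Motifs in the promoters, searched on both strands from -250 to 30, were few. TATAAA was found in 4 of the 10, JUNB, FOS, FOSB and ATF3, and in 9.67% of all 20098 promoters. A CArG box was found in EGR1 alone, and in 1.18% of all promoters. The AP-1 letters TGANTCA were found in FOSL1 and FOSL2 (5.25% of all), TGACGTCA in JUND (2.69%), the ETS letters CCGGAAG in IER2 (13.7%) and GCGNGGGCG in EGR1 (13.4%). JUN had none of them. A match is a run of letters only, and the absence of one says nothing about a factor.

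For context, related genes were counted in the same way. Of 40 other immediate-early genes, 23 had a replicated site at 10 min and 26 at 20 min, against 11.5% and 11.0% of all genes. A persistent cluster was at 17 (3.81% of all genes), a transient cluster at 10 (8.95%) and a late cluster at 15 (8.78%). Ranked by −log10 q in the library where each stood lowest, the first persistent or late clusters of these genes were at ID1, ZFP36L1, NR4A1, ZFP36L2, SRF and ID3. Late clusters were ranked without the CPT10 libraries, so their ranks are not alike with those of persistent clusters. The late cluster of NR4A1, for example, had only 6.39 and 9.54 times at 10 min. At ID1, an inhibitor of helix-loop-helix factors, the best site of the persistent cluster was 40.5 and 25.9 times the expected height at 10 min and 51.97 and 35.9 times at 20 min, in each CPT20 library above any of the 10 genes. At SRF, the serum response factor itself, a late cluster 1704 bp downstream of the 5′ end had 24.2 and 15.0 times at 20 min, beside a site of 12.3 times in CPT10 replicate 2. Of 9 other AP-1 family genes, from BATF to MAFK, none had a persistent cluster (3.81% of all genes) and 1, MAFG, had a late cluster (8.78%). With 9 genes, counts this low do not set these relatives apart from all genes. Median cover about the 5′ end, averaged over libraries, was 27.7% for the 10 genes, 17.4% for the other immediate-early genes, 5.998% for the other AP-1 family genes and 5.54% for all protein-coding genes.

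By the profile of best sites over the 4 libraries, the genes nearest to JUND were GADD45GIP1, NLRP2 and SYVN1, at Euclidean distances of 0.85, 0.96 and 1.00 on the scale log2 of 1 plus the height ratio. Those nearest to JUN were CADM2, PPP2R2A and HOXB3, at 0.13, 0.15 and 0.15.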

How the data were processed

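The deposited data are 8 peak lists, 1 per strand for each of 4 treated END-seq libraries. Per the study's methods, the authors aligned reads to hg19 with Bowtie2, filtered them with SAMtools and called peaks with MACS2 per library and strand with control samples as input, with no local background and a q-value threshold of 0.05, without pooling replicates. Each peak carries, as deposited, the authors' score (the −log10 q-value scaled and cut to a whole number), a linear ratio of summit over expected height (fold), both significance values as −log10 (p-value and q-value), and a summit offset. The expected height was the same for all peaks of a list, so no control value of a position can be read from the fold. Genes were taken from GENCODE 44 on GRCh37, the same build as hg19, and canonical transcripts gave 5′ ends. Where a gene had no canonical transcript (279 genes) the gene record was used.

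Heights were recovered from the deposited fold values, sites were paired under 150 bp with bedtools 2.31.1, and replicates had to overlap by 1 bp. Cover, sites and clusters were computed for every protein-coding gene with Python 3.11.15. The study's removal of blacklisted regions, its normalisation to spike-in reads and its read-count test of treated against control samples were not repeated. Persistent, transient and late clusters here rest on overlap of listed peaks, whereas the study's classes of those names rest on that test. Read totals were not used here, and 2 libraries per time limit precision. The 10 genes and the gene lists were chosen with earlier results of these data known. All 10 genes are named; other genes were named by cluster rank or nearest profile. Cover divided by whole-genome cover and cover within a replicate number were added after seeing the data. Pairing and replication were tested on simulated data.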

Additional observations from a re-analysis of the deposited data

How the results depend on the processing

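The 8 results of the comparison (numbers of genes with replicated sites and each class, the share of midpoints downstream, and the density and site ratios) were recomputed 98 times, and 72 values stayed within 1.5 times, the replicate SD or the Wilson interval of the share. With −log10 q of at least 10, replicated sites were at 3 genes at 10 min and 5 at 20 min, and the persistent, transient and late counts were 3, 0 and 3, against 0.826%, 1.56%, 0.542%, 0.338% and 1.11% of all genes, with log2 ratios of 0.17 for density and 0.86 for sites. With lists of equal length these ratios were 0.20 and 0.56. Divided by the whole-genome number of each library they were 0.51 and 1.18. The transient count was 1 with pairing under 300 bp and 1 with the window about the 5′ end, an alternative chosen after seeing the data, and the late count was 3 without flanks. Measuring from the gene record, also chosen later, put 60% of midpoints downstream. With a single replicate at each time, transient counts were 6 to 8, late counts 8 to 10, persistent counts 7 to 9, and replicated sites 9 to 10 at 10 min and 10 at 20 min. Without each library the ratios ran from -0.47 to 0.33 for density and from -0.39 to 0.66 for sites. The labels share replicate numbers but do not tie them to the 2 experiments of the study's methods, and with replicate number as a block the ratios were -0.04 and 0.18. The cause of these shifts was not tested. At this depth a summit under 4 to 6 fragments cannot enter a list, so absence of a site is absence from the list only.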
